A study of Caenorhabditis elegans with 4 samples.

Results

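NFYA-1 binding on the arms of chromosome II was described from the peaks of a chromatin immunoprecipitation sequencing (ChIP-seq) experiment in late Caenorhabditis elegans embryos. The arms were taken as the sequence below 4900000 and from 12000000 onward in WormBase build WS180, and a peak was assigned by the midpoint of its interval. By this rule 381 of the 5320 peaks of the combined list lay on the arms, 211 on the left and 170 on the right, and 478 lay in the centre between them. All worms were hermaphrodites of strain OP404, which carries the mutation unc-119(ed3) on III and the integrated transgene wgIs404. In that transgene nfya-1 is joined to a TY1-GFP-3xFLA tag, where GFP is green fluorescent protein, and a rescuing unc-119(+) copy comes with it. It was introduced by bombardment, and the labels say that the fusion follows the normal expression pattern of the gene. No nfya-1 mutation is listed in the genotype. Worms were grown at 20 °C, fixed with 2% formaldehyde and sonicated, and anti-GFP antibodies collected the tagged protein. The series holds 2 ChIP and 2 input libraries, with no untagged strain among them, and the labels do not state if the replicates were separate cultures. The stage could not be checked, since peak positions hold no expression values.

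NFYA-1 is the A subunit of NF-Y, a trimer with NF-YB and NF-YC that recognises the CCAAT box, an element found in many promoters. The A subunit provides most of the contact with the bases of the box, while the B and C subunits pair through histone-like folds. Each worm autosome has a gene-dense centre with little meiotic recombination, flanked by arms that recombine more often and hold more repeats and more repressive chromatin. The question followed here is how NFYA-1 peaks are spread over these domains of chromosome II, how strong they are, and in which replicate lists they appear.

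The 3 deposited lists compared are those of ChIP replicate 1, of ChIP replicate 2 and of the combined data. Each peak carries the authors' q-value, which is a p-value adjusted for the number of tests, and strength below means −log10 of that q. Such a value grows with sequencing depth as well as with enrichment. The depth of each library is unknown, because no read counts were analysed here, and the values of the input libraries were not used. The combined list draws on the same ChIP data as the replicate lists, so the 3 lists are not independent. No gene annotation or sequence in build WS180 was used, so regions are named by position and none is assigned to a gene, exon, intron or UTR.

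NFYA-1 peaks were sparser on the arms of chromosome II than in its centre, most of all on the left arm. The combined list had 43.1 peaks per Mb on the left arm (95% Poisson interval 37.5 to 49.3), 52.0 on the right arm (44.5 to 60.5) and 67.3 in the centre (61.4 to 73.6). Replicate 1 had 24.7, 29.4 and 36.2 peaks per Mb in the same order. Replicate 2 had 26.9, 37.0 and 43.4. The left arm was thus the lowest and the centre the highest of the 3 domains in each list.

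Together the arms had 0.693 times the peak density of the centre in the combined list (exact interval 0.604 to 0.795, two-sided exact binomial test across peaks, adjusted p = 1.77e-07 over 4 comparisons). By the same exact test the ratios of replicate 1 (0.734, adjusted p = 0.00179) and replicate 2 (0.714, adjusted p = 0.000160) passed as well. For the left arm alone, the combined ratio to the centre was 0.640 (0.542 to 0.754, exact test, adjusted p = 1.35e-07). Replicate 1 gave 0.682 (adjusted p = 0.00178) and replicate 2 gave 0.621 (adjusted p = 1.19e-05), both by the exact test. The lower density of the left arm therefore passed in each of the 3 lists, but not in the stronger part of the combined list alone (0.758, adjusted p = 0.0669, exact test).

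The right arm was closer to the centre, and its difference from it passed only in the combined list. The combined ratio was 0.773 (0.645 to 0.923, exact binomial test, adjusted p = 0.00469). Replicate 1 gave 0.812 (0.635 to 1.03, adjusted p = 0.114) and replicate 2 gave 0.854 (0.686 to 1.06, adjusted p = 0.146), both by the exact test. Among combined peaks found in both replicates the right arm had 26.6 peaks per Mb and the centre 29.2, a ratio of 0.913 (exact test, adjusted p = 0.530).

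Between the arms, the left had 0.828 times the density of the right in the combined list, which did not pass (0.673 to 1.02, exact binomial test, adjusted p = 0.0674). Replicate 1 gave 0.841 (adjusted p = 0.213, exact test), and replicate 2 gave 0.727, which passed (0.564 to 0.939, adjusted p = 0.0163, exact test). The call also turned in the combined list when both boundaries were moved 0.5 Mb outward (0.760, adjusted p = 0.0197) or inward (0.814, adjusted p = 0.0363), by the same exact test. The left arm was the lower of the arms in each case. By covered length, peaks took up 16.3 kb per Mb of the left arm, 21.9 kb per Mb of the right arm and 27.6 kb per Mb of the centre. These tests count peaks, which are not replicates and lie in clusters, so their p-values are likely too small and their intervals too narrow. Full bins of 0.5 Mb held 20.8 ± 10.997 combined peaks on the left arm (mean ± SD), 25.8 ± 9.11 on the right and 33.4 ± 9.02 in the centre. Each SD is larger than Poisson counting would give. No test that allows for this spread was made. The calls above, that of the right arm above all, therefore hold for counting error alone.

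**Figure D1:**
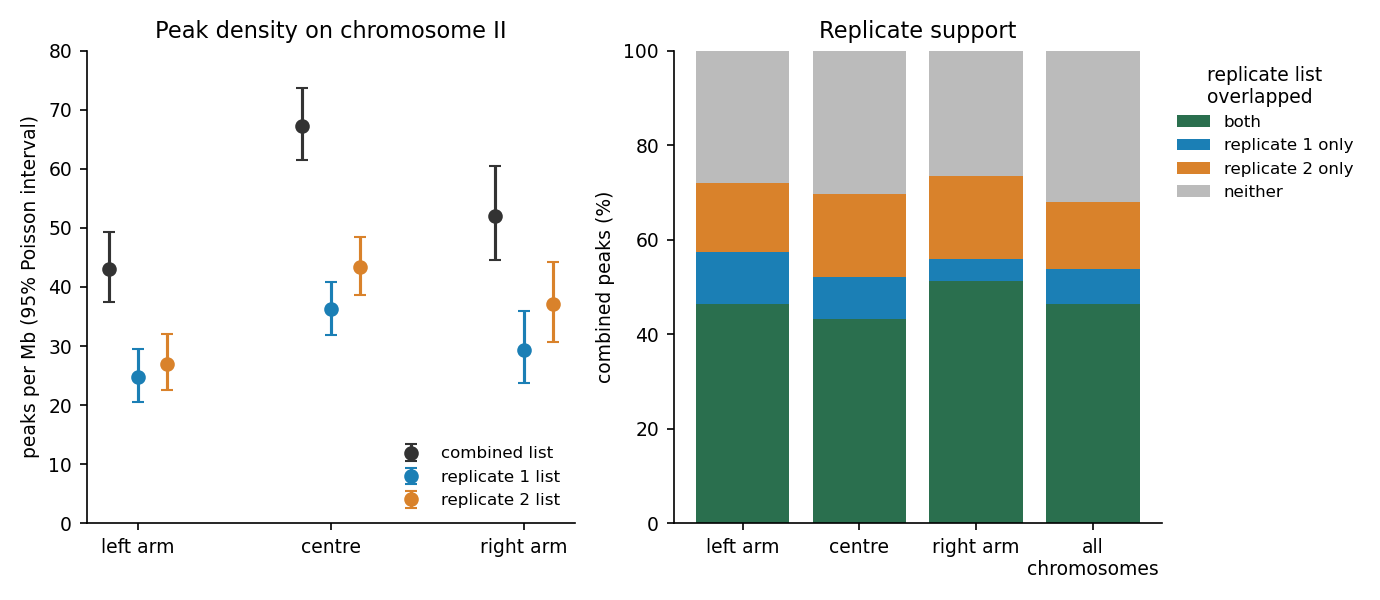
Left, peaks per Mb on the left arm, centre and right arm of chromosome II in each of the 3 lists, with exact 95% Poisson intervals. Right, percent of combined peaks in each domain, and on all chromosomes, that overlap peaks of both replicates, of 1 replicate or of neither; the left arm is lowest in density in each list, and the shares found in both lie between 43.3% and 51.2%.

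The left arm was not evenly sparse. Its innermost 1 Mb, next to the centre, had 72 peaks in the combined list, 43 in replicate 1 and 48 in replicate 2, above the average of the centre in each list. The next 1 Mb outward held 43 combined, 30 replicate 1 and 31 replicate 2 peaks. From 2 to 3 Mb from the boundary there were 30 combined, 12 replicate 1 and 11 replicate 2 peaks. From 3 to 4 Mb there were 26, 12 and 16. Density was thus lowest between 2 and 4 Mb from the boundary in all 3 lists. In the outermost 0.899 Mb it was higher again, at 44.5 combined peaks per Mb, 26.7 in replicate 1 and 28.9 in replicate 2.

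Bins of 0.5 Mb along the left arm held from 4 to 40 combined peaks, with a mean of 20.8 ± 10.997 (SD over 9 bins). The bin that spans the boundary is left out of these 9, and its part on the arm, from 4.5 Mb to the boundary, held 24 combined peaks. The emptiest bin, from 1500001 to 2000000, had 4 peaks in the combined list, 1 in replicate 1 and 3 in replicate 2. The fullest, from 3500001 to 4000000, held 40 combined, 28 replicate 1 and 24 replicate 2 peaks. Bins of the centre held 33.4 ± 9.02 combined peaks (SD over 14 bins, range 23 to 57), so 6 of these 9 left arm bins lay below the lowest bin of the centre and the other 3 within its range. The stretch from 1.5 to 2.5 Mb, picked after the data were seen, held 19 combined peaks, of which 3 were found in both replicates, against 46.4% of all combined peaks. It held none of the 500 strongest, which with 19 peaks is not far from their 9.4% share of the whole list.

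The right arm showed no such trough in the 1 Mb steps. Counting outward from its boundary, steps of 1 Mb held 46, 54 and 55 combined peaks. The same steps held 24, 32 and 31 peaks in replicate 1 and 33, 35 and 42 in replicate 2. The last 0.267 Mb held 15 combined peaks, or 56.2 per Mb. Its 6 full bins of 0.5 Mb held 25.8 ± 9.11 combined peaks (SD, range 14 to 41), and the fullest was the bin from 14000001, with 41 combined, 24 replicate 1 and 33 replicate 2 peaks. The emptiest, from 14500001 to 15000000, held 14 combined, 7 replicate 1 and 9 replicate 2 peaks.

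**Figure D2:**
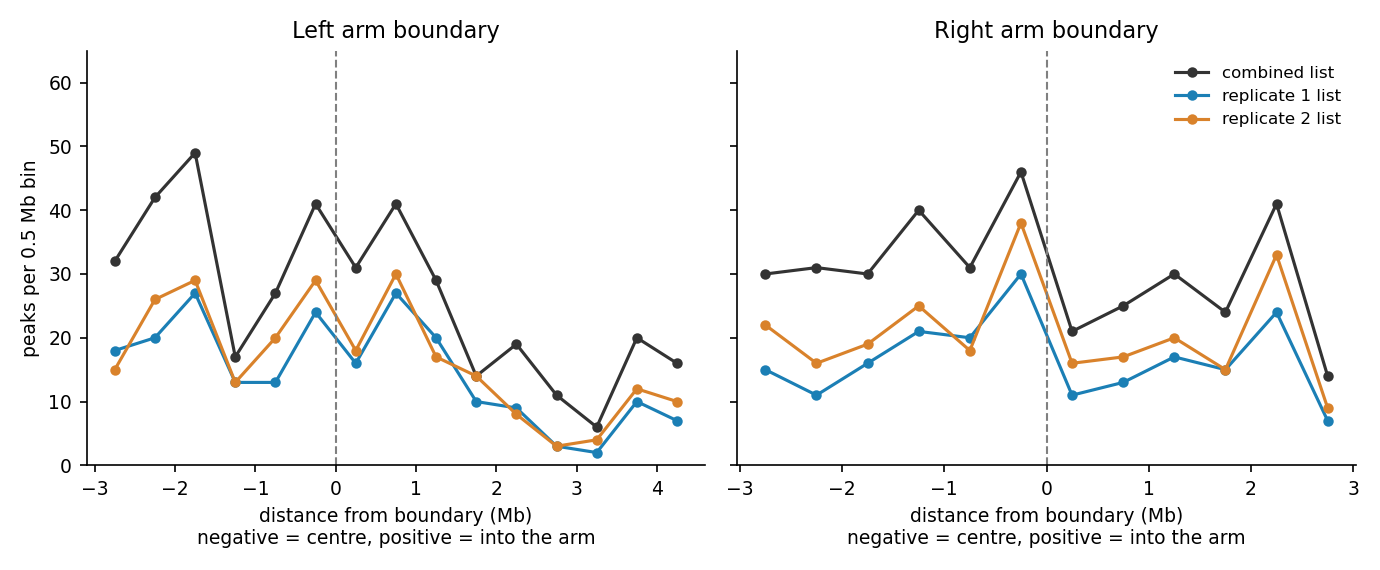
Peaks per 0.5 Mb bin in each list against the distance from the left and right arm boundaries (dashed line), with the centre at negative and the arm at positive distances. The lowest point of the combined list is the bin at 3 to 3.5 Mb into the left arm, with 6 combined, 2 replicate 1 and 4 replicate 2 peaks.

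At each boundary the nearest peaks on either side were as follows. The last left arm peak, from 4851649 to 4851966, had a combined q of 7.66e-19 and was found in both replicates, with its midpoint 48.2 kb inside the boundary. The first centre peak beyond it, from 4902145 to 4902648, had a q of 1.66e-08 and was found in neither. On the right, the last centre peak, from 11979499 to 11980366, had a q of 1.11e-29 and was found in both. The first right arm peak, from 12006698 to 12006890, had a q of 2.36e-05 and was found in replicate 2 alone.

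Among the strongest NFYA-1 regions of chromosome II, a lower density on the arms was not detected. Of the 500 combined peaks with the smallest q over all chromosomes, which are 9.4% of the list, 38 lay on the arms (9.97% of the 381 arm peaks, exact Clopper-Pearson interval 7.16 to 13.4). The right arm held 22 of them, or 6.73 per Mb, the left arm 16, or 3.27 per Mb, and the centre 30, or 4.23 per Mb. With these peaks alone the arms had 1.10 times the density of the centre (exact interval 0.665 to 1.84, exact binomial test, adjusted p = 0.717). The left arm had 0.485 times the density of the right (0.238 to 0.967, adjusted p = 0.122 by the same exact test). Few peaks enter these ratios, neither passed, and the interval of the first still holds the 0.693 seen for all peaks.

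In the stronger part of the combined list, which by construction holds 50% of all peaks, were 55.1% of arm peaks (exact interval 50.0 to 60.2) and 46.0% of centre peaks (41.5 to 50.6). Within that part the arm density was 0.830 times that of the centre and did not pass (0.684 to 1.01, exact binomial test, adjusted p = 0.119). Among peaks found in neither replicate, most of them weak, the ratio was 0.624 (0.480 to 0.808, exact test, adjusted p = 0.000881). Whether these ratios differ from each other was not tested.

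Median strength was higher on the right arm than in the centre in each list. In the combined list the median −log10 q was 8.87 on the left arm (quartiles 4.9 and 14.8), 9.44 on the right arm (5.1 and 21.8) and 7.71 in the centre (4.98 and 13.3), against 8.15 over all chromosomes. In replicate 1 it was 6.51, 9.93 and 6.91 for left, right and centre. In replicate 2 it was 6.60, 8.34 and 6.32. The left arm was above the centre in the combined list and in replicate 2, and below it in replicate 1. The quartile ranges overlap throughout, and no test was made on these medians.

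Combined peaks had median widths of 341 bp on the left arm, 352.5 bp on the right arm and 338.5 bp in the centre. Wider arm peaks tended to be stronger (Spearman's rho of 0.640 across 381 arm peaks, a description, since both values come from the same reads). Intervals of 1000 bp or more numbered 4 of 211 on the left arm, 4 of 170 on the right arm and 21 of 478 in the centre. The whole list had 200 of 5320. The arm counts are small, and these differences were not tested.

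**Figure D3:**
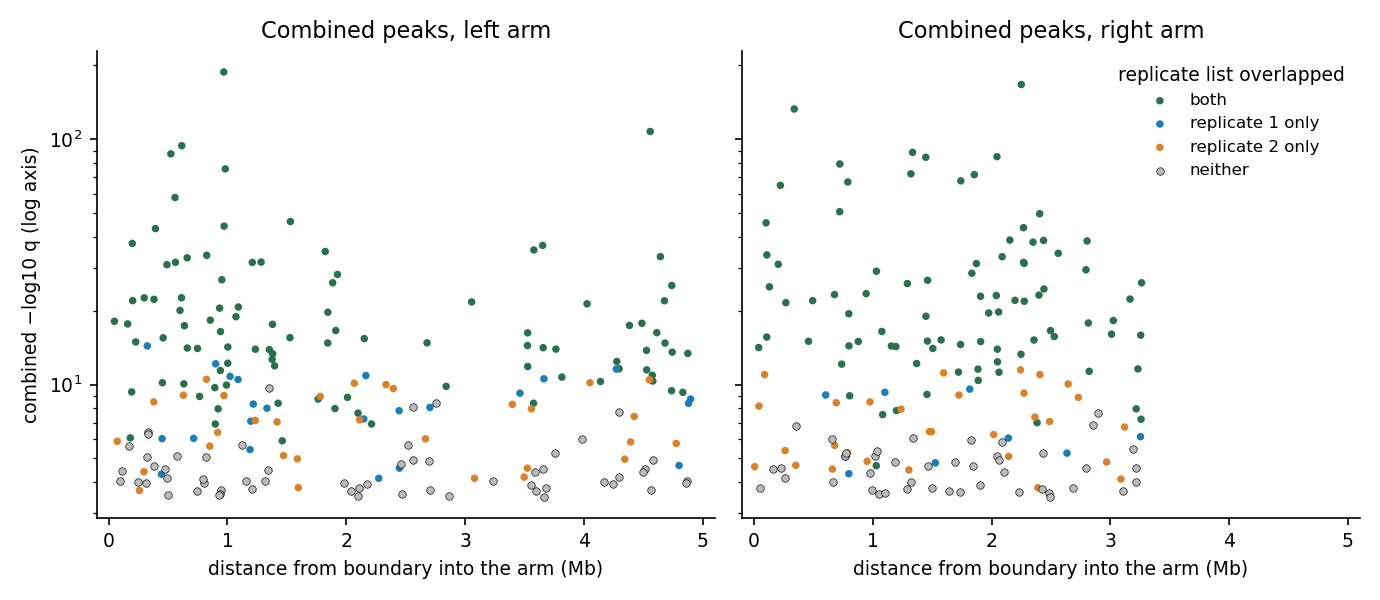
Combined −log10 q (log axis) of each arm peak against its distance from the boundary into the arm, for the left (211 peaks) and right arm (170 peaks), coloured by the replicate lists it overlaps. Peaks found in neither replicate lie mostly toward the bottom, with medians of 4.06 on the left and 4.56 on the right. They reach 9.64 and 7.65 and overlap the range of the other classes. The peaks found in both reach 188 and 167.

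The strongest left arm region ran from 3930209 to 3931630 and had rank 10 in the whole combined list. Its q was 8.06e-189 in the combined list, 2.83e-111 in replicate 1 and 1.62e-109 in replicate 2. It lay in a group of strong regions, as another of the leading left arm peaks, from 3928005 to 3928360, had q-values of 5.58e-45, 1.60e-19 and 4.77e-26 in the same order. One more, from 3917721 to 3918759, had 1.80e-76, 1.01e-42 and 5.97e-45. All 3 intervals were thus called in each replicate as well as in the combined list.

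Near the left end of the chromosome, far from the other leading regions of this arm, lay its second strongest, from 340999 to 341710, with q-values of 2.49e-108 in the combined list, 2.90e-60 in replicate 1 and 9.69e-58 in replicate 2. The third, from 4284332 to 4285176, differed more between the replicates than the other leading peaks. Its q was 7.50e-95 in the combined list, 4.45e-36 in replicate 1 and 5.61e-65 in replicate 2, where it ranked 135 and 32. The fourth, from 4376464 to 4377355, had 5.63e-88, 6.12e-52 and 7.81e-51. The remaining 2 of the leading 8, from 4341487 to 4341875 and from 3370046 to 3370456, had combined q-values of 1.28e-58 and 6.45e-47. All but the region at 340999 lay between 3370046 and 4377355.

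On the right arm the strongest region was also the widest, 2643 bp, from 14249297 to 14251939. Its q was 6.03e-168 in the combined list, where it ranked 14, 3.25e-99 in replicate 1 and 1.39e-75 in replicate 2. It kept its width in the replicates, at 2567 and 2560 bp. The second, from 12338999 to 12339495, was much narrower, 497 bp, with q-values of 1.29e-133, 2.10e-82 and 4.88e-94. In replicate 2 this narrow region was the stronger of the pair, and in replicate 1 and the combined list the wide one was.

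The next was the region from 13334809 to 13335745, with q-values of 3.69e-89 combined, 1.33e-49 in replicate 1 and 1.37e-38 in replicate 2. At lower coordinates, from 13321080 to 13321483, lay another of the leading 8, with 4.98e-73, 5.01e-32 and 7.84e-45, which was stronger in replicate 2. The region from 14045243 to 14046766 had 1.15e-85, 2.67e-41 and 6.26e-40. The leading right arm peaks were completed by regions from 13446385 to 13446887 (combined q of 3.22e-85), from 12722552 to 12723230 (5.09e-80) and from 13855032 to 13855719 (1.72e-72). The 8 spread from 12338999 to 14251939, with none of them in the last Mb before the right end.

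Slightly under 1 in 2 arm peaks were found in both replicates, close to the share over the genome. Of the 381 arm peaks, 185 overlapped peaks of both replicates by at least 1 bp (48.6%, exact interval 43.4 to 53.7), against 46.4% of all combined peaks. On the left arm the share was 46.4% (39.6 to 53.4) and on the right arm 51.2% (43.4 to 58.9). The centre had 43.3% (38.8 to 47.9). Neither arms against centre (odds ratio 1.24, 0.934 to 1.63, Fisher's exact test, two-sided, adjusted p = 0.260) nor left against right (odds ratio 0.827, 0.541 to 1.27, adjusted p = 0.455) passed. With boundaries 0.5 Mb inward, arms against centre did pass (odds ratio 1.47, adjusted p = 0.0118, Fisher's exact test). The intervals allow odds ratios well away from 1.

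A further 104 arm peaks overlapped no replicate peak (27.3%, 22.9 to 32.1), against 32.1% of all combined peaks. The left arm held 59 of them (28.0%) and the right arm 45 (26.5%). Peaks found in replicate 1 alone numbered 23 on the left (10.9%, 7.04 to 15.9) and 8 on the right (4.71%, 2.05 to 9.06), where the whole list has 7.39%. Those in replicate 2 alone numbered 31 on the left (14.7%) and 30 on the right (17.6%), where the whole list has 14.1%. As a share of arm peaks, replicate 1 alone was thus higher on the left, and replicate 2 alone was somewhat higher on the right. The similar counts of 31 and 30 come from arms of unequal length. They therefore mean a higher density of such peaks on the right arm, which is the shorter. These differences between the arms were not tested.

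Support followed strength, but the combined q draws on the same ChIP data as the replicate lists, so this was largely built in. Over the 185 arm peaks found in both, the combined −log10 q was at the median 0.952 times the sum of the replicate values. The shares below are therefore a description and no separate evidence of reproducibility. With the whole combined list in order of q, 84 of 84 arm peaks in its strongest 20% were found in both replicates (exact interval 95.7 to 100%). In the next 10% of the list 49 of 50 were. In the next 30% the count was 49 of 105 (46.7%), and in the weakest 40% it was 3 of 142 (2.11%). Over all chromosomes these shares were 99.9%, 97.2%, 52.3% and 2.58%. Found in both, the median −log10 q of the combined list was 15.4 on the left arm and 21.6 on the right, against 15.5 in the centre.

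The 1 peak among those 50 that was missed by a replicate was the widest of the left arm, 1903 bp, from 4573904 to 4575806. Its combined q was 4.22e-15, but replicate 1 held a 575 bp interval with a q of 9.32e-05, from 4573815 to 4574389, and replicate 2 held none. It belongs to a run of 5 combined peaks from 4571166 to 4585660, with gaps under 5 kb, in which 4 were found in neither replicate. Of the other single-replicate arm peaks, the strongest in replicate 2 alone ran from 14244416 to 14244745 (combined q of 3.30e-12). The strongest arm peak found in neither, from 3553570 to 3554077, had a combined q of 2.28e-10.

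Seen from the replicates, 185 of 217 replicate 1 peaks on the arms overlapped a replicate 2 peak (85.3%, 79.8 to 89.7), and 186 of 253 replicate 2 peaks overlapped a replicate 1 peak (73.5%, 67.6 to 78.8). Both were near the shares over all chromosomes, 85.7% and 75.02%, while the centre had 82.1% and 67.9%. For replicate 1 the share was 81.0% on the left arm (72.9 to 87.6) and 90.6% on the right (82.9 to 95.6). For replicate 2 it was 99 of 132 peaks on the left (66.7 to 82.1%) and 87 of 121 on the right (63.0 to 79.7%). The order of the arms thus differed between the replicates, and the intervals of the arms overlap in both.

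Where an arm peak was found in both replicates, its strength was about equal in them at the median, as over all chromosomes. The median log2 ratio of −log10 q, replicate 1 over replicate 2, was 0.03 (quartiles -0.24 and 0.30) over the 185 arm peaks. Of them, 95 were stronger in replicate 1 (51.4%), against 1218 of 2469 peaks found in both over all chromosomes (49.3%), where the median was -0.005. The median was 0.02 on the left arm, 0.06 on the right arm and -0.05 in the centre. Spearman's rho between the replicates was 0.806 across the 185 arm peaks, against 0.822 over all chromosomes. These peaks share both libraries and are not independent. Among the 16 leading peaks, 10 were stronger in replicate 1 and 6 in replicate 2, too few to compare with the share over all chromosomes.

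**Figure D4:**
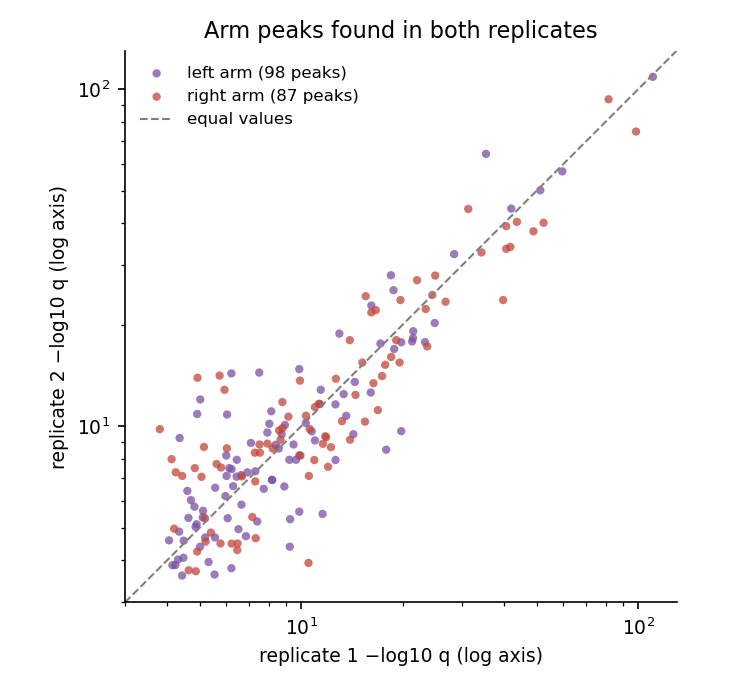
Replicate 2 against replicate 1 −log10 q (log axes) for the 185 arm peaks found in both replicates, 98 on the left and 87 on the right arm, with the line of equal values. Points scatter to both sides of the line, with 95 of 185 stronger in replicate 1 (51.4%, against 49.3% over all chromosomes). The farthest of the strong peaks is the left arm region with 35.4 in replicate 1 and 64.3 in replicate 2.

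Neighbouring peaks were farther apart on the arms. The median gap between neighbouring combined peaks was 13273 bp on the left arm (quartiles 3973.5 and 29979.5), 10340 bp on the right arm (3142 and 28668) and 7449 bp in the centre (2024 and 19893). Gaps of at least 50 kb numbered 24 on the left arm and together took up 2.08 Mb of it. There were 17 on the right arm (1.20 Mb) and 22 in the centre (1.68 Mb). Gaps follow from density, so they are no separate evidence for it.

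The longest gap of the left arm was 190589 bp, between the peaks that end at 1844939 and start at 2035529. That of the right arm was 109394 bp, between 12494824 and 12604219. Neither replicate list held a peak inside either gap. Both peaks next to the right arm gap were found in at least 1 replicate, and of those next to the left arm gap, the outer was found in both and the inner in neither.

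Gaps under 1000 bp made up 16 of 210 on the left arm (7.62%), 17 of 169 on the right arm (10.1%) and 64 of 477 in the centre (13.4%). Both members were found in both replicates in 9 of these 17 close pairs on the right arm, in 5 of 16 on the left and in 12 of 64 in the centre. The pairs on the arms are few, and no share over all chromosomes is given here. Differences between the domains in these counts were not tested. The closest pair of the right arm was 201 bp apart and joined 2 strong regions. The first, from 12721863 to 12722350, had q-values of 2.03e-51 combined, 1.05e-25 in replicate 1 and 1.02e-28 in replicate 2. The second was the leading peak from 12722552 to 12723230, with 2.20e-44 in replicate 1 and 4.15e-41 in replicate 2, so each replicate resolved the pair on its own. The closest pair of the left arm, 341 bp apart, joined the widest interval described above to a peak found in neither replicate.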

How the data were processed

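PeakSeq is named as the caller in the source column and WormBase WS180 as the build, per the file headers. The deposited value per peak is the authors' q-value. Not given in the sources used here are the aligner, the PeakSeq version and threshold, the use of the inputs and how the replicates were combined. Depth per library is unknown. From these lists, −log10 q, widths, gaps and counts per domain were computed. Overlap meant at least 1 bp, and where a combined peak overlapped several peaks of a replicate, the strongest was used. The span ran from the first base under a peak of any list on II (1391) to the last (15266701), as chromosome lengths in WS180 were not used. Densities were compared with two-sided exact binomial tests and shares with Fisher's exact tests, each adjusted by Benjamini-Hochberg over 4 comparisons at 0.05. Intervals are exact 95% intervals and cover counting error over peaks only. Functions were tested on simulated data. Named by rule were the 8 strongest peaks per arm found in both replicates, the widest, the strongest in 1 or in neither replicate, those at the boundaries, and the closest pair, longest gap and fullest and emptiest bins. The narrowest intervals, runs of peaks, the 500 strongest and the parts of the list by rank were chosen after their values were seen. Members, lists and rules were chosen with earlier results of these data known. Tests ran in SciPy 1.17.1 under Python 3.11.15, with pandas 2.3.3 and NumPy 2.4.6, and figures were drawn with matplotlib 3.10.9.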

Additional observations from a re-analysis of the deposited data

How the results depend on the processing

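For 9 results 72 alternative values were computed, and 47 of them changed neither direction nor call, or stayed within the stated interval or spread. Settings that touch neither of the domains compared were left out. The density ratio of arms to centre was 0.714 to 0.734 in single replicate lists, 0.830 in the stronger part of the list (adjusted p = 0.119, exact test) and 1.10 among the 500 strongest. For left arm against centre it was 0.621 to 0.682, 0.758 (adjusted p = 0.0669, exact test) and 0.773 (adjusted p = 0.607, exact test) in the same order. For right arm against centre it was 0.812 to 0.854, 0.939 and 1.59, and 0.913 for peaks in both replicates and 0.895 with boundaries 0.5 Mb inward, none of which passed. Left against right was 0.727 to 0.841 in single lists, and passed in replicate 2 alone (0.727) and with boundaries 0.5 Mb outward (0.760) or inward (0.814). Without the emptiest left arm bin it was 0.904 (adjusted p = 0.349, exact test). The share of arm peaks in both replicates was 81.9% in the stronger part of the list, for which no share over all chromosomes is given here. The share that overlapped replicate 1, whatever replicate 2 held, was 56.7%, and the share that overlapped replicate 2 was 64.6%. Over all combined peaks, 46.4% were in both, 7.39% in replicate 1 alone and 14.1% in replicate 2 alone. These arm shares are therefore not read as a trait of the arms. Counted by such overlap with 1 named replicate, the odds ratio of arms to centre was 1.17 to 1.20. For peaks in both replicates it was 0.827 in the stronger part and 1.47 with boundaries inward, where it passed (adjusted p = 0.0118, Fisher's exact test). For left against right it was 0.713 to 1.06 by overlap with 1 named replicate. Median −log10 q on the arms less that in the centre was 1.35, from 0.832 to 0.976 in single lists, 1.86 for peaks in both replicates and 1.76 with boundaries inward. The median width difference of 6.5 bp was -16.5 to 0.0 bp in single lists and -10.0 bp for peaks in both. Fewer peaks enter the stricter sets, and the causes of the other changes were not tested. The 500 strongest peaks and the bins left out were chosen after seeing the data. No paired analysis was possible because the shared replicate numbers join ChIP to input libraries, and input values were not analysed here. Ratios within each ChIP replicate are given above. Depth is unknown, so a weak peak missing from a list cannot be called absent.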

Other observations

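Some arm intervals were very narrow. Of the 381 combined arm peaks, 11 were under 100 bp wide (2.89%), against 84 of 5320 in the whole list (1.58%), and all 11 were found in neither replicate list, as were 81 of the 84. The centre had 5 of 478 (1.05%), also all found in neither. These counts are small, and their differences were not tested. The narrowest on the left arm was 3 bp, from 4397077 to 4397079, with a q of 0.000273, and the narrowest on the right arm was 14 bp, from 14084495 to 14084508, with a q of 1.52e-06. The replicate lists held no arm interval under 119 bp.

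A few replicate peaks on the arms had no combined counterpart, 1 of 217 in replicate 1 and 6 of 253 in replicate 2, where all chromosomes have 22 of 2907 and 74 of 3319. None of the 7 overlapped a peak of the other replicate. The matching count over all chromosomes is not given here, so this is not read as a trait of the arms. The strongest, on the right arm in replicate 2 from 12768036 to 12768455, had a q of 1.35e-07. The one nearest the right end, from 15266452 to 15266701, was the last peak of chromosome II in any list.

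Runs of at least 4 combined peaks with gaps under 5 kb occurred 4 times on the left arm and 3 times on the right. On the right arm all 3 runs had mostly replicated members: 4 of 5 peaks from 14040126 to 14050800, 4 of 5 from 14269083 to 14275948, and 3 of 4 from 15253777 to 15263546, at the end of the chromosome. On the left arm the counts were 2 of 5 from 1235650 to 1247357, 3 of 4 from 1372199 to 1375960, 3 of 5 from 3957411 to 3966434 and 0 of 5 from 4571166 to 4585660. With 5 peaks or fewer in a run, these shares are too imprecise to compare the arms. They are also too imprecise to set against the share found in both, 46.4% of all combined peaks and 51.2% on the right arm. Runs in the centre and on other chromosomes are not given here.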
